A study of Homo sapiens with 18 samples.

Results

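EXTL1, KLHDC8A, ACP3, ROR2 and ICA1L are 5 of the 61487 gene identifiers in a raw count table of 18 RNA libraries from MSC-hTERT cells. They were chosen from the measured values: of the 18544 genes that passed a filter on low counts, they were the genes called lower in the libraries labelled SRF-FOXO1 than in SRF-ICA1L at an adjusted p-value under 0.05. MSC-hTERT is an immortalized human mesenchymal stem cell line, cultured here with FGF-2, ascorbic acid and heparin. The cells carried pMSCV (a retroviral vector, read here as the control), SRF, or a fusion of SRF to FOXO1, ICA1L, PDGFRB or RELA, with 3 libraries in each of the 6 groups. All groups share the immortalized background, and the sources used here do not say whether a line was a clone or a pool, or whether the 3 libraries of a group came from separate cultures. Spread between libraries may therefore be technical. Comparing the fusions with each other asks which genes differ with the partner joined to SRF.

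SRF, the serum response factor, is a DNA-binding transcription factor that acts at CArG boxes and controls cytoskeletal, muscle and growth-response genes. FOXO1 is a forkhead transcription factor, RELA is the NF-kB subunit p65, PDGFRB is a receptor tyrosine kinase of mesenchymal cells, and ICA1L is a BAR domain protein related to islet cell autoantigen ICA1. The other 4 genes work outside transcription. EXTL1 is an exostosin-like glycosyltransferase of heparan sulfate synthesis, ROR2 is a receptor tyrosine kinase for WNT5A in non-canonical Wnt signalling, and ACP3 is prostatic acid phosphatase, whose transmembrane form can release adenosine from extracellular AMP. KLHDC8A encodes a protein with kelch repeats.

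Total counts ran from 19362319 to 29806771 per library. Levels are in CPM, the count scaled to the library total. The SRF gene, native and construct together, had 57.3 to 64.4 CPM in pMSCV, 677.5 to 1122 CPM in the SRF libraries and 151.0 to 336.8 CPM across the fusions. RELA reached 256 ± 19.2 CPM in SRF-RELA against 93.3 ± 3.76 CPM in pMSCV (SD, n = 3), and PDGFRB at 709 ± 204.5 CPM in SRF-PDGFRB against 425 ± 67.0 CPM. FOXO1 had 9.79 ± 3.99 CPM in the libraries labelled SRF-FOXO1 beside 12.6 ± 4.27 CPM in pMSCV, so its counts do not check that label, and each direction below that involves SRF-FOXO1 rests on the label. The 7 mesenchymal markers were present in every library, from THY1 at 36.8 CPM or more to COL1A1 at up to 20590 CPM. In the pancreas and prostate list INS and KLK3 were at 0 in every library and KLK2 at 0.0694 CPM or less, and in the skeletal muscle list MYOG and MYF5 were at 0.

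Because EXTL1, KLHDC8A, ACP3 and ROR2 had their highest levels in the same groups, the 250 bases before the RefSeq start of each are shown, 5′ to 3′ on the gene's strand (GRCh38.p14). The windows are chr1:26021525-26021774 on the + strand, chr1:205357040-205357289 on the - strand, chr3:132317157-132317406 on the + strand and chr9:91950229-91950478 on the - strand. The whole EXTL1 window lies inside the gene span given below, which begins at 26019884, so it is not upstream of that start. KLHDC8A has a second RefSeq start, whose window was searched but is not shown. Capitals mark the one match found, a CArG box with 1 letter off that begins 162 bases before the ACP3 start.
EXTL1: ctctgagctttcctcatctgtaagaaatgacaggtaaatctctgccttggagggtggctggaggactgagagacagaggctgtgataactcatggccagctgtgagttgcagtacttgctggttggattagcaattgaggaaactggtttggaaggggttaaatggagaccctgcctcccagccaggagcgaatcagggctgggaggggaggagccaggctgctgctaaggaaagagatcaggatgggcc
KLHDC8A: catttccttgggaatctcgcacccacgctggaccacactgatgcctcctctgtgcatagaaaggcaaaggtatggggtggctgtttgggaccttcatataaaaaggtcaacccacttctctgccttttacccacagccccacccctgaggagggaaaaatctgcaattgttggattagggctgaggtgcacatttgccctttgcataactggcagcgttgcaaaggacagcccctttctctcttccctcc
ACP3: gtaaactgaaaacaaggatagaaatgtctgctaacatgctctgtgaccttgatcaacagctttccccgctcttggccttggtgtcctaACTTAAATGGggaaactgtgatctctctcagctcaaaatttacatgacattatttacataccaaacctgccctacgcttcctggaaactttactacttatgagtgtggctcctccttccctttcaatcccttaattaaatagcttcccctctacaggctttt
ROR2: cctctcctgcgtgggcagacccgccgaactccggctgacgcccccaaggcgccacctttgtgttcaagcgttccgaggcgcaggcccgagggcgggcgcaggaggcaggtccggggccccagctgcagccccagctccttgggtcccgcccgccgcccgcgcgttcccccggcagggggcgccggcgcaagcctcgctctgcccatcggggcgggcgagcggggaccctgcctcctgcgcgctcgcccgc
All 5 genes were matched in the RefSeq table. The search covered both strands for the CArG box, the forkhead motif GTAAACA and the NF-kB motif, besides the CArG box with at most 1 letter off, which includes exact boxes. No window of the 5 genes held an exact CArG box, the forkhead motif or the NF-kB motif. Of all 35116 windows of this length, 1.16% held a CArG box, 2.98% the forkhead motif, 5.21% the NF-kB motif and 16.8% a CArG box with at most 1 letter off. Base composition differed among the 4 windows: GC content was 42.0% for ACP3, 52.0% for KLHDC8A, 53.6% for EXTL1 and 78.0% for ROR2, against a median of 58.0% over all windows.

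The values that chose the genes were as follows. The log2 fold change of SRF-FOXO1 minus SRF-ICA1L was -3.82 for ICA1L, -4.43 for KLHDC8A, -5.31 for ROR2, -3.33 for EXTL1 and -3.07 for ACP3, with standard errors of 0.17, 0.56, 0.70, 0.51 and 0.49. These 5 were 0.027% of the genes tested, and no gene was called higher. Just inside the threshold stood ACP3, with a choosing adjusted p of 0.0465 from edgeR's quasi-likelihood test. Just outside it, at an adjusted p of 0.0622 by edgeR, stood CTPS1, a CTP synthase, at 94.4 CPM in SRF-FOXO1 and 50.5 CPM in SRF-ICA1L. The lipid-binding gene SEC14L2 had the same adjusted p, 0.0622 by edgeR, at 21.3 and 44.8 CPM. GLRA3, a glycine receptor subunit, was the other gene at 0.0622, with 3.20 CPM in SRF-FOXO1 and no count in the 3 SRF-ICA1L libraries. With the replicate number as a block the same comparison called 169 genes, or 0.911%.

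EXTL1 (ENSG00000158008, GRCh38 chr1:26019884-26036464, + strand) was low outside 2 fusions. Its level was 6.69, 7.33 and 4.05 CPM in SRF-ICA1L replicates 1 to 3 and 2.67, 6.07 and 4.10 CPM in SRF-RELA, ranges that overlap. In the libraries labelled SRF-FOXO1 it was 0.336, 0.979 and 0.509 CPM, from 10, 25 and 11 counts. These lie below every SRF-RELA and SRF-ICA1L library and above every library of the remaining groups. In pMSCV the EXTL1 levels were 0.248, 0.129 and 0.104 CPM, with 0.0742, 0.191 and 0 CPM in SRF and 0.139, 0.275 and 0.310 CPM in SRF-PDGFRB. Those 3 groups overlap and are not ordered beyond their spread. In bulk libraries a smaller share of cells with the transcript and less of it per cell cannot be told apart. As a description with no test, the log2 fold change against pMSCV was 5.30 (SE 0.59) in SRF-ICA1L and 1.97 (SE 0.64) in SRF-FOXO1, and SRF-ICA1L exceeded SRF-RELA by 0.55 (SE 0.44).

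ROR2 (ENSG00000169071, GRCh38 chr9:91563091-91950162, - strand) had 3 or fewer counts in every library outside 2 fusions. It was at 3.41, 2.36 and 2.25 CPM in SRF-ICA1L, from 86, 68 and 54 counts, and at 0.355, 0.771 and 0.293 CPM in SRF-RELA, from 8, 22 and 7 counts. Each SRF-ICA1L library lay above each SRF-RELA library, and each of those above the rest of the libraries. ROR2 had 2, 0 and 2 counts in pMSCV, 2, 0 and 0 in SRF, 3, 0 and 2 in SRF-FOXO1 and 0 in all 3 SRF-PDGFRB libraries, where a count of 0 allows up to 0.103 to 0.155 CPM. The 4 low groups are not separable at this depth. The pooled rate in SRF-ICA1L was 41.1 times that in SRF-FOXO1, from 208 and 5 counts, and 5.40 times that in SRF-RELA, both given as descriptions because SRF-ICA1L took part in the choice. Against SRF-PDGFRB it was at least 22.1-fold higher, taking 3 counts per library as the floor.

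KLHDC8A (ENSG00000162873, GRCh38 chr1:205336065-205357090, - strand) followed the same order. It was at 1.86, 2.50 and 1.71 CPM in SRF-ICA1L, from 47, 72 and 41 counts, and at 0.666, 0.491 and 0.376 CPM in SRF-RELA, from 15, 14 and 9 counts. The 3 SRF-FOXO1 libraries held 1, 3 and 3 counts, and the pMSCV, SRF and SRF-PDGFRB libraries held 2 or fewer each. No SRF-RELA library overlapped an SRF-ICA1L library or a library of the 4 low groups. SRF-ICA1L held 160 counts against 7 in SRF-FOXO1, a ratio of rates of 22.6 from the values that chose the gene. The log2 difference between SRF-ICA1L and SRF-RELA was 2.04 (SE 0.45), given as a description.

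ACP3 (ENSG00000014257, GRCh38 chr3:132317367-132368298, + strand) had 6 or more counts in every library. It was at 8.87, 3.65 and 3.09 CPM in SRF-ICA1L and 1.87, 2.35 and 2.30 CPM in SRF-RELA. Replicate 1 of SRF-ICA1L stood far above the other 2, but all 3 exceeded every SRF-RELA library. Among the low groups ACP3 had 0.389, 0.903 and 1.21 CPM in pMSCV, then 0.482, 0.803 and 1.08 CPM in SRF, 1.15, 1.10 and 0.826 CPM in SRF-PDGFRB and 1.01, 0.235 and 0.648 CPM in SRF-FOXO1. These 4 groups overlapped. ACP3 in SRF-FOXO1 was -0.32 (SE 0.51) on the log2 scale relative to pMSCV, whereas in SRF-ICA1L it was 2.74 (SE 0.48), both without a test.

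ICA1L (ENSG00000163596, GRCh38 chr2:202773150-202871985, - strand) is itself the partner in one of the fusions, and its gene-level counts do not separate native from construct transcripts. It was at 152.8, 119.5 and 134.4 CPM in SRF-ICA1L, 13.8 times the pooled rate in SRF-FOXO1, again the values of the choice. All other libraries lay between 8.34 and 15.2 CPM. Within that range SRF-FOXO1 was at 10.5, 8.34 and 10.6 CPM, overlapping SRF-RELA. Its highest library and the lowest SRF-PDGFRB library were both at 10.6 CPM, with a log2 difference of -0.17 (SE 0.15) between these groups. Low values in SRF-FOXO1 took part in choosing the gene, so nothing is read from this order. The SRF-FOXO1 difference from pMSCV, at 13.5 ± 1.06 CPM, was -0.39 (SE 0.15) on the log2 scale. In SRF-RELA it was at 12.5 ± 3.08 CPM, overlapping pMSCV, unlike the other 4 genes.

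**Figure D1:**
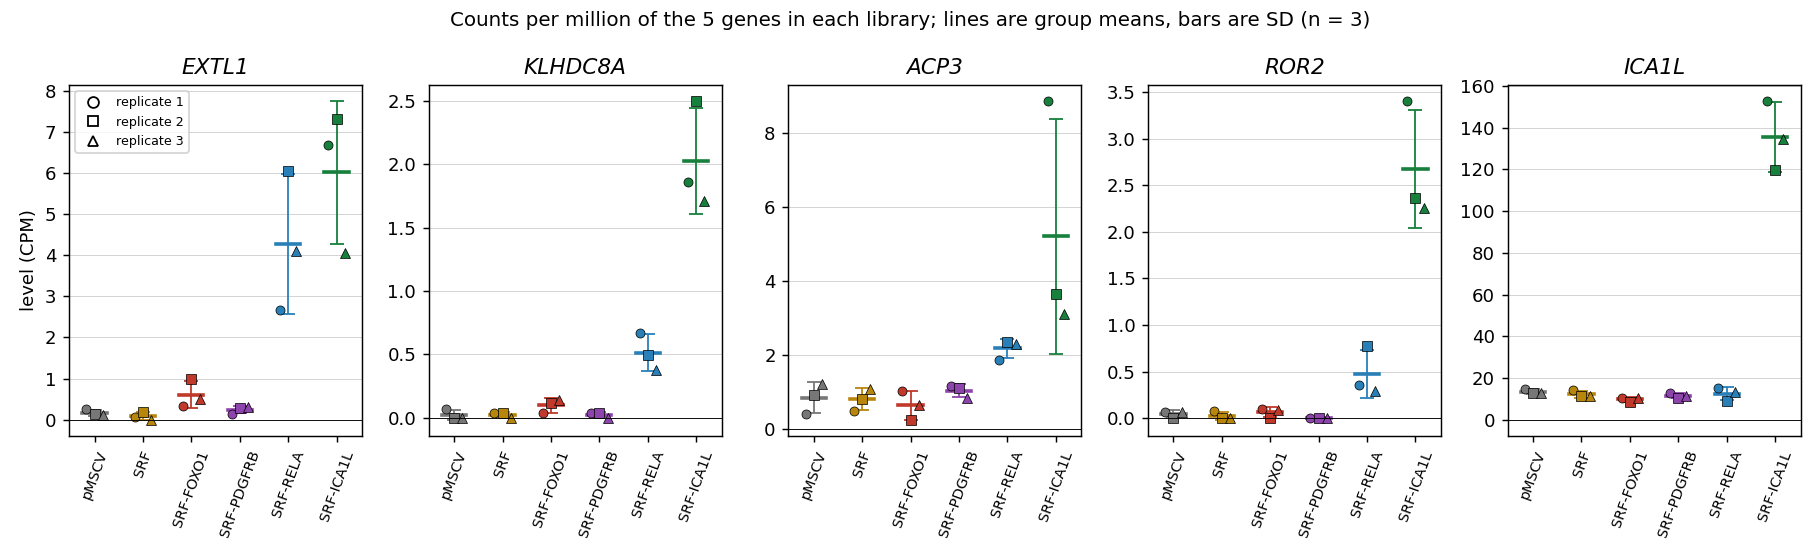
Level of each gene (CPM, linear axes) in the 18 libraries by group. Points are libraries, with the shape giving the replicate number, lines are group means and bars are SD (n = 3). For EXTL1, KLHDC8A, ACP3 and ROR2 the SRF-ICA1L and SRF-RELA points lie above those of the other groups, though ACP3 and ROR2 were not called in SRF-RELA. For ICA1L the SRF-ICA1L points lie apart at 119.5 to 152.8 CPM.

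SRF-RELA, SRF-PDGFRB, SRF and pMSCV took no part in choosing the genes, so the 6 comparisons among them were tested. In SRF-RELA, EXTL1 and KLHDC8A rose against all 3 of pMSCV, SRF and SRF-PDGFRB, by 4.12 to 5.59 on the log2 scale. The call was made for 2 of the 5 genes in each of these comparisons, where 0.183%, 0.34% and 0.113% of all genes tested were called higher. Across libraries, 4 of the 5 genes had every SRF-RELA library above every pMSCV, SRF and SRF-PDGFRB library, a pattern held by 1.29% of the genes tested. With SRF-FOXO1 added to the lower groups the same 4 genes held it, and 0.291% of all genes did. Low values in SRF-FOXO1 chose the genes, so nothing is read from that second count. KLHDC8A and ROR2 passed the low-count filter in all 3 libraries of a group only in SRF-ICA1L (limit 0.377 CPM), so the presence of these 2 among the tested genes came from the libraries that chose them.

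For EXTL1 the log2 fold change of SRF-RELA was 4.75 (SE 0.59, edgeR adjusted p = 0.00141) against pMSCV. It was 5.59 against SRF (SE 0.64, edgeR adjusted p = 0.000952) and 4.22 against SRF-PDGFRB (SE 0.57, edgeR adjusted p = 0.00322), higher in 3 of 3 same-numbered pairs each time. These calls were kept in each of the 6 fits per comparison that left out 1 library. With only the 2 compared groups in the fit, EXTL1 stayed called against pMSCV (edgeR adjusted p = 0.0375) but not against SRF (0.0656) or SRF-PDGFRB (0.0534).

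For KLHDC8A the log2 fold change of SRF-RELA was 4.17 against pMSCV (SE 0.74, edgeR adjusted p = 0.0277), 4.16 against SRF (SE 0.74, 0.0225) and 4.12 against SRF-PDGFRB (SE 0.74, 0.0340). The 38 counts in SRF-RELA against 2 in pMSCV gave a ratio of rates of 20.4 (95% exact interval 5.27 to 174, counting error only). In fits to the 12 libraries of these 4 groups alone, the edgeR adjusted p was 0.0631, 0.0496 and 0.0856, and over all alternatives it ran up to 0.225, 0.129 and 0.190. Leaving out SRF-RELA replicate 1 or 2 ended the call in all 3 comparisons, as did leaving out pMSCV replicate 2 or 3, or any 1 SRF or SRF-PDGFRB library, in the comparison with that group.

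ROR2 did not pass the test in SRF-RELA against pMSCV (log2 fold change 3.23, SE 0.79, edgeR adjusted p = 0.208) or SRF (4.08, SE 0.89, 0.0785). Against SRF-PDGFRB, which had no ROR2 count, SRF-RELA was at least 3.92-fold higher, with an edgeR adjusted p of 0.0501. With the replicate number as a block ROR2 was called against SRF (edgeR adjusted p = 0.0322) and SRF-PDGFRB (0.0190) but not pMSCV (0.0900), in fits where 1.26% and 0.62% of genes were called higher against SRF and SRF-PDGFRB. Over all alternatives these p-values ran from 0.00161 to 0.435, from 6.91e-05 to 0.228 and from 0.0190 to 1. The 37 counts in SRF-RELA against 2 in SRF gave a ratio of rates of 20.2 (95% exact interval 5.21 to 173).

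ACP3 did not pass the test in any of the 6 comparisons. Its log2 fold change in SRF-RELA was 1.44 against pMSCV (SE 0.48), 1.48 against SRF (SE 0.48) and 1.13 against SRF-PDGFRB (SE 0.47), with edgeR adjusted p-values of 0.699, 0.329 and 1.00 and unadjusted ones of 0.00841, 0.00705 and 0.0294. It was higher in 3 of 3 same-numbered pairs in each. ICA1L differed in SRF-RELA from these groups by -0.06 (SE 0.15), 0.06 (SE 0.15) and 0.16 (SE 0.15) on the log2 scale.

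Neither SRF alone nor SRF-PDGFRB gave a call for any of the 5 genes. By edgeR 0 of 5 were called in SRF against pMSCV, in SRF-PDGFRB against pMSCV and in SRF-PDGFRB against SRF, where 0.0216%, 0.0324% and 0.0863% of genes were called higher. None of the 5 had an unadjusted p under 0.05 there, and DESeq2 called 0 as well. At these shares 5 genes are too few to tell them from any others by calls. EXTL1 in SRF-PDGFRB was 0.53 (SE 0.73) above pMSCV on the log2 scale, and ACP3 was 0.31 (SE 0.49) above it. Against SRF alone, EXTL1 was 1.37 (SE 0.81) higher in SRF-PDGFRB.

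**Figure D2:**
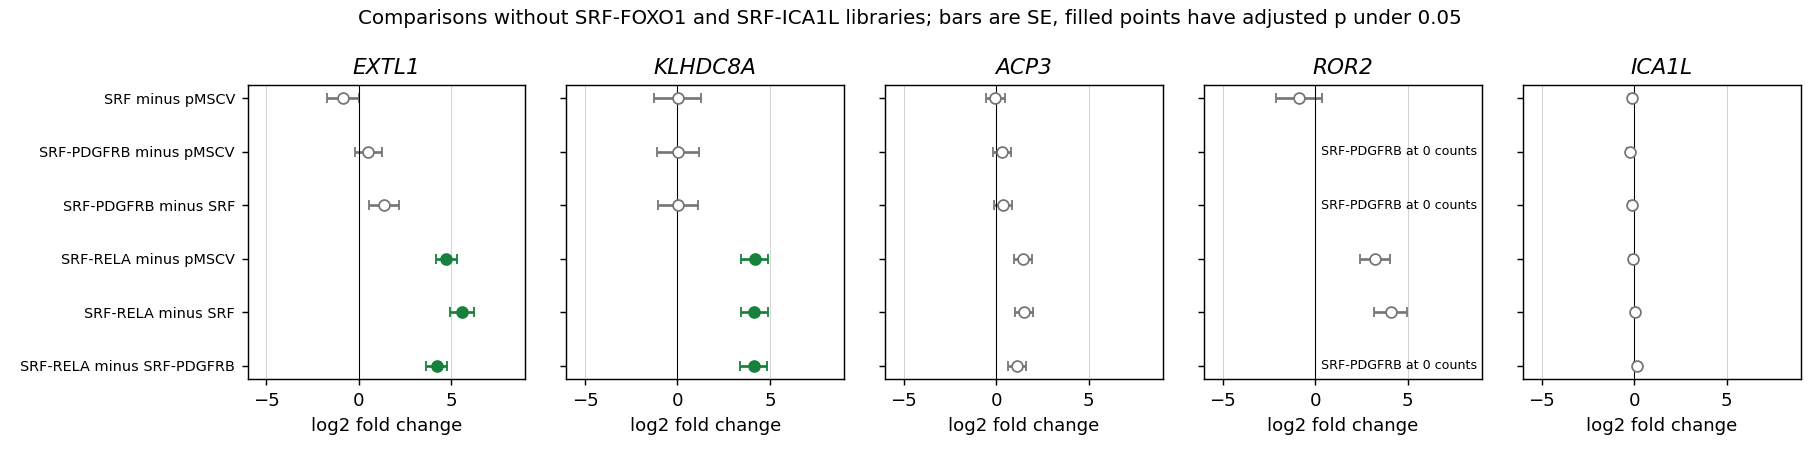
Log2 fold changes (horizontal axis) of the 5 genes in the 6 comparisons among pMSCV, SRF, SRF-PDGFRB and SRF-RELA. Bars are SE, and filled points had an edgeR adjusted p under 0.05. ROR2 is not drawn against SRF-PDGFRB, which had no count. The filled points are EXTL1 and KLHDC8A in SRF-RELA.

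Levels of EXTL1 and ROR2 are set here beside SRF counts. Those counts pool native and construct transcripts, so they do not give the amount of each construct. The SRF libraries had the highest SRF counts, at 677.5 to 1122 CPM, and EXTL1 at 0.191 CPM or less. SRF-PDGFRB replicates 1 to 3, at 336.8, 159.6 and 261.1 CPM of SRF, had 0.139, 0.275 and 0.310 CPM of EXTL1 and no ROR2 count. Replicates 2 and 3 of SRF-PDGFRB thus had less SRF than every SRF-ICA1L and SRF-RELA library. SRF-RELA at 324.0 to 328.5 CPM of SRF had 2.67 CPM of EXTL1 or more, and SRF-ICA1L at 273.8 to 276.8 CPM had 4.05 CPM or more. SRF-FOXO1 had 151.0 to 210.9 CPM of SRF, less than SRF-ICA1L and SRF-RELA, and the part of that difference in the results was not tested.

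**Figure D3:**
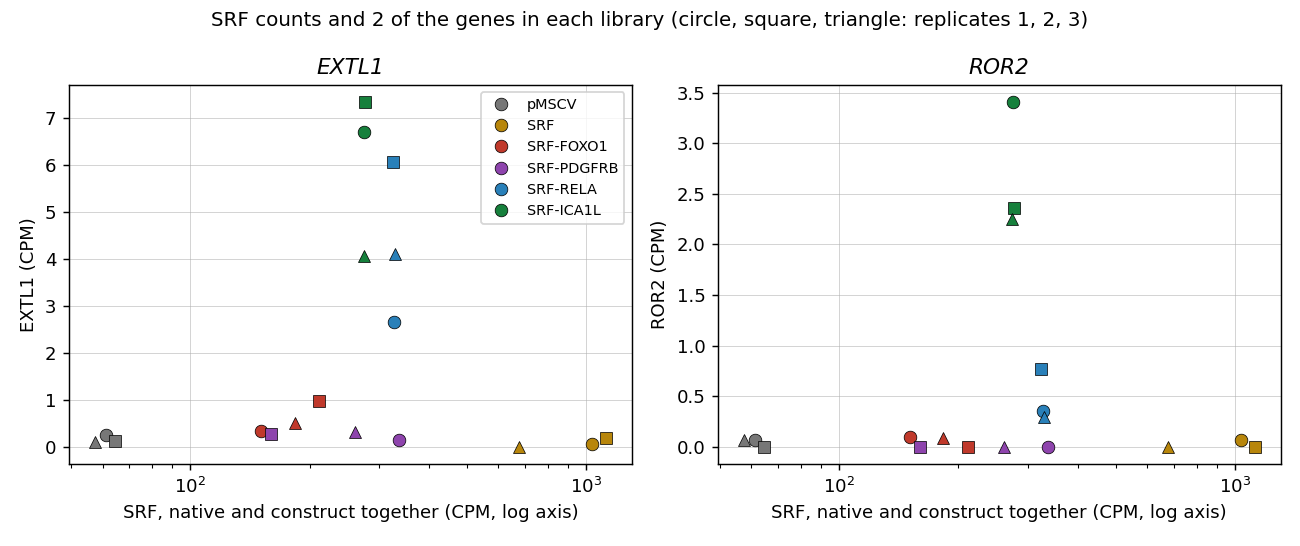
EXTL1 and ROR2 (CPM, vertical axes) against SRF, native and construct together (CPM, log axis), in each of the 18 libraries. Colours are groups and shapes are replicate numbers. The SRF libraries lie furthest right at 677.5 to 1122 CPM and near 0 on both vertical axes.

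Every SRF-ICA1L and SRF-RELA library lay above every library of the other 4 groups for EXTL1, KLHDC8A, ACP3 and ROR2, as for 0.151% of the genes tested. Each SRF-ICA1L library exceeded all libraries of the other 5 groups for 4 of the 5 genes, not for EXTL1, against 0.243% of the genes tested. The choice of genes fixed much of both patterns. Over the 18 libraries, log2 CPM values correlated most between KLHDC8A and ROR2 (r = 0.950) and between EXTL1 and KLHDC8A (r = 0.929), and least between EXTL1 and ICA1L (r = 0.622). These are descriptions over libraries that share 6 groups and, within a group, line and culture conditions.

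Among all genes tested, the most like EXTL1 were ITIH3, an inter-alpha-trypsin inhibitor heavy chain (r = 0.964), the keratin KRT12 (r = 0.950) and MYOZ1, a sarcomere protein (r = 0.936). ITIH3 was at 5.50, 17.1 and 7.26 CPM in SRF-ICA1L, 3.95, 24.8 and 7.69 CPM in SRF-RELA, and 0.403, 1.64 and 0.463 CPM in SRF-FOXO1. In pMSCV it held a count in 1 library only, at 0.0430 CPM. For KLHDC8A the nearest were SEC14L2 (r = 0.955), MYOZ1 (r = 0.934) and the cartilage matrix gene CILP (r = 0.922). SEC14L2 was 44.8 ± 9.26 CPM in SRF-ICA1L, 30.1 ± 6.55 CPM in SRF-RELA and 16.9 to 21.3 CPM on average in the other groups. It is also one of the 3 genes just outside the choosing threshold.

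For ROR2 the nearest were SEC14L2 (r = 0.931), LZTS1 (r = 0.909) and the long non-coding RNA LINC01614 (r = 0.902). LINC01614 was at 18.1, 40.1 and 17.7 CPM in SRF-ICA1L, 5.20, 17.7 and 3.43 CPM in SRF-RELA, and 2.01, 3.60 and 1.99 CPM in SRF-FOXO1. In the other 3 groups it was at 1.30 CPM or less. For ACP3 they were LZTS1 (r = 0.848), ENSG00000283376 (r = 0.819) and the histamine methyltransferase HNMT (r = 0.819). LZTS1, a leucine zipper gene, was at 2.73, 1.04 and 0.876 CPM in SRF-ICA1L, highest in replicate 1 as ACP3 was. For ICA1L they were UACA (r = 0.816), TOGARAM2 (r = 0.802) and MFAP4 (r = 0.793), with UACA at 149 ± 4.37 CPM in SRF-ICA1L against 110.0 ± 14.9 CPM in pMSCV.

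**Figure D4:**
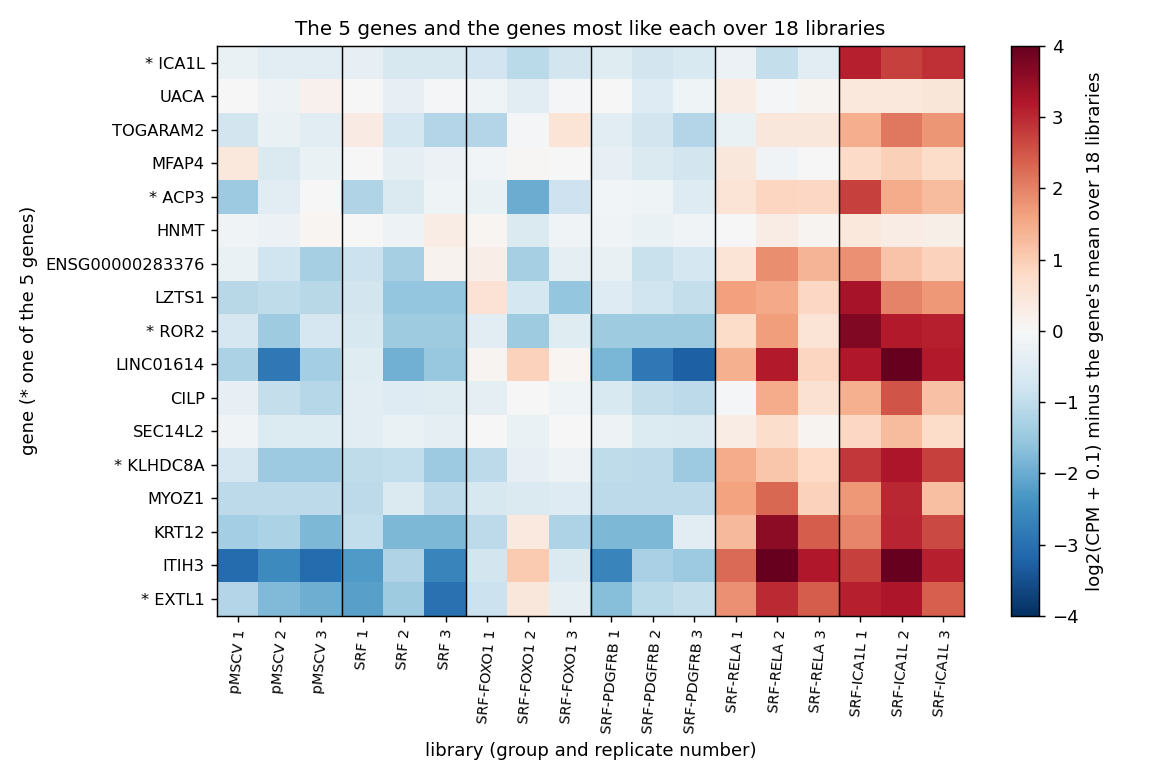
Heat map of the 5 genes (marked *) and the genes most like each. Rows are 17 genes, columns are the 18 libraries, and colour is log2(CPM + 0.1) minus the gene's mean over the libraries. SRF-RELA and SRF-ICA1L columns are red for the rows from ACP3 to EXTL1, faintly for HNMT and SEC14L2 and not in SRF-RELA replicate 1 for CILP, while ICA1L is red in SRF-ICA1L.

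Other genes of the pathways around the 5 were taken from lists, with 109 genes set for heparan sulfate synthesis, non-canonical Wnt signalling, acid phosphatases, extracellular nucleotide metabolism, kelch genes and BAR domain relatives, and 86 were tested. In SRF-FOXO1 against SRF-ICA1L edgeR called 0 of the 86, where 0.027% of all genes tested were called, with 15 at an unadjusted p under 0.05 and 1 called by DESeq2. Their median log2 fold change was 0.01, as was that of all genes tested. With the replicate block, 4 were called, 2 in each direction, where 0.911% of all genes were called: ALPL (log2 fold change 3.12, adjusted p = 0.0251 by edgeR) and SDC1 (0.72, 0.0494) higher in SRF-FOXO1, and PRICKLE1 (-1.18, 0.0320) and GPC6 (-1.02, 0.0409) lower. ALPL, alkaline phosphatase of mineralizing cells, was at 40.8, 26.0 and 28.4 CPM in SRF-FOXO1 and 4.91, 2.81 and 3.13 CPM in SRF-ICA1L. SDC1 and GPC6 are heparan sulfate core proteins and PRICKLE1 is a planar polarity gene.

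Against pMSCV, edgeR called 1 of the 86 in SRF-FOXO1, where 0.928% of all genes tested were called in either direction, and 1 in SRF-ICA1L, where 0.469% were. It called 0 in SRF, SRF-PDGFRB and SRF-RELA, where 0.027%, 0.0324% and 0.183% of all genes were called, with 9, 1 and 8 of the 86 at an unadjusted p under 0.05 and 1, 0 and 2 called by DESeq2. With the replicate block the calls were 9 in SRF-FOXO1, 6 in SRF-ICA1L and 2 in SRF-RELA, where 7.03%, 4.66% and 0.971% of all genes were called.

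The call in SRF-FOXO1 was ALPL, at 31.7 ± 7.96 CPM against 0.800 ± 0.419 CPM in pMSCV (log2 fold change 5.36, SE 0.76, edgeR adjusted p = 0.00625). ALPL was at 8.16 ± 7.32 CPM in SRF and 9.48 ± 2.18 CPM in SRF-RELA, where it was called with the replicate block only (edgeR adjusted p = 0.0792 without and 0.0177 with it). Like ACP3 and NT5E, it hydrolyses phosphate esters outside the cell. Its call in SRF-FOXO1 was lost without pMSCV replicate 1. NT5E, the main extracellular AMP-hydrolysing enzyme and a mesenchymal marker, had 583 ± 163 CPM in pMSCV but 362 ± 100.5 CPM in SRF-ICA1L, and was not called (edgeR adjusted p = 0.328). The acid phosphatases ACP1 and ACP2 stayed at group means of 70.3 to 80.0 CPM and 40.7 to 49.4 CPM. ACP6, of the same list, was called higher in SRF-ICA1L against pMSCV with the replicate block only. Its levels were 29.6 ± 5.93 CPM and 23.5 ± 1.63 CPM, with libraries that overlapped. The log2 fold change with the block was 0.44 (edgeR adjusted p = 0.0445 with and 0.188 without it). Between SRF-FOXO1 and SRF-ICA1L, ACP6 was not called with or without the block.

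Around ROR2 the one call without the replicate block was DAAM1, a formin of planar polarity signalling. It was at 53.4 ± 15.6 CPM in SRF-ICA1L against 26.5 ± 2.33 CPM in pMSCV (log2 fold change 1.13, SE 0.23, edgeR adjusted p = 0.0407). This call was lost without SRF-ICA1L replicate 2 or 3 or without any 1 pMSCV library. With the replicate block DAAM1 was called in SRF-FOXO1 too (log2 fold change 0.61, edgeR adjusted p = 0.0290), with the ligand WNT5B (0.91, 0.0228) and the Wnt signal transducer DVL1 (0.37, 0.0240).

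Among the Frizzled receptors of Wnt ligands, FZD4, FZD6 and FZD7 were called in SRF-ICA1L against pMSCV with the replicate block only. FZD7 was at 53.7, 51.1 and 42.7 CPM in SRF-ICA1L and 28.8, 34.3 and 26.4 CPM in pMSCV, ranges that did not overlap (log2 fold change with the block 0.84, edgeR adjusted p = 0.0443). FZD4 was higher at 8.70 ± 1.96 CPM against 4.91 ± 0.410 CPM (0.90, edgeR adjusted p = 0.0362), and FZD6 lower at 70.2 to 86.6 CPM against 104.9 to 136.5 CPM (-0.44, edgeR adjusted p = 0.0368). Without the block their edgeR adjusted p-values were 0.180 for FZD4, 0.160 for FZD6 and 0.239 for FZD7. In SRF-FOXO1 and SRF-RELA the group means were 48.1 and 37.4 CPM for FZD7, 7.19 and 7.22 CPM for FZD4, and 101 and 93.0 CPM for FZD6. None of them was called between SRF-FOXO1 and SRF-ICA1L, with or without the block, so these shifts are not particular to SRF-ICA1L by call. The ligand WNT5A had 116.5, 159.6 and 284.4 CPM in pMSCV beside 84.9, 66.3 and 84.7 CPM in SRF-ICA1L, and the difference of -1.14 (SE 0.36) on the log2 scale was not called (edgeR adjusted p = 0.237). The co-receptors RYK and PTK7 had group means of 105 to 124 CPM and 279 to 347 CPM. The paralog ROR1, named after its values were seen, was at 33.8 ± 7.32 CPM in SRF-ICA1L, 29.7 ± 8.73 CPM in SRF-RELA and 18.1 ± 3.0 CPM in pMSCV, and was called in neither fusion (edgeR adjusted p = 0.219 and 1.00).

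No relative of EXTL1, KLHDC8A or ICA1L on the lists was called by edgeR in SRF-FOXO1 against SRF-ICA1L or in any construct against pMSCV. These lists held 10, 6 and 4 tested genes, and 0.027% to 0.928% of all genes tested were called. So few genes cannot tell the relatives from any others. Other heparan sulfate genes were called against pMSCV with the replicate block only. In SRF-FOXO1, where 7.03% of all genes were called, 3 core protein genes were higher. Among them were SDC2 (log2 fold change 0.86, edgeR adjusted p = 0.0026) and GPC1 (0.80, 0.0080). The modifying enzyme gene NDST4 was lower (-1.07, 0.0260). In SRF-ICA1L, where 4.66% were called, SDC2 was higher (0.66, 0.0158). EXT1, a subunit of the heparan sulfate polymerase, had group means of 166 to 179 CPM. The paralogs EXTL3, KLHDC8B and ICA1, named after their values were seen, had group means of 76.3 to 101 CPM, 12.5 to 16.8 CPM and 1.38 to 1.87 CPM.

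The nearest tested gene on each side beside the 5 on the chromosome gave 10 neighbours. By edgeR 0 of 10 were called in SRF-FOXO1 against SRF-ICA1L, SRF-ICA1L against pMSCV or SRF-RELA against pMSCV, and DESeq2 called 0 as well. With 0.027%, 0.469% and 0.183% of all genes called in these comparisons, 10 genes are too few to tell the neighbours from any others. The number at an unadjusted p under 0.05 was 1, 0 and 0, the one being NUAK2, a kinase gene 14274 bases from KLHDC8A, at 10.7 CPM in SRF-FOXO1 and 5.35 CPM in SRF-ICA1L. Annotated genes that overlap the 5 were pseudogenes and microRNA genes at 0.215 CPM or less in every library.

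Summed levels of 3 marker lists differed among the groups. The endothelial list summed to 73.6 to 94.1 CPM in pMSCV, 89.6 to 115 CPM in SRF, 78.3 to 141 CPM in SRF-PDGFRB, 127 to 351 CPM in SRF-FOXO1, 120 to 327 CPM in SRF-RELA and 131 to 394 CPM in SRF-ICA1L. Of its 5 genes TEK held most of the sum, while VWF, CDH5 and KDR stayed at 1.46, 1.96 and 3.26 CPM or less. PECAM1 did not rise with TEK in SRF-FOXO1 or SRF-ICA1L, where its means were 8.1 and 8.9 CPM. The pMSCV mean of PECAM1 was 13.1 CPM, with libraries that overlapped both fusions. Its means were 20.3 CPM for SRF alone, 16.6 CPM for SRF-PDGFRB and 15.0 CPM for SRF-RELA. The epithelial list of 5 genes summed to 51.0 to 91.1 CPM in pMSCV, 51.2 to 143 CPM in SRF, 52.2 to 107 CPM in SRF-PDGFRB, 93.5 to 226 CPM in SRF-FOXO1, 75.2 to 152.5 CPM in SRF-RELA and 98.6 to 232 CPM in SRF-ICA1L. These ranges overlap in part, and the sum was carried by KRT18 and KRT8, with KRT5 at 0 and EPCAM at 0.537 CPM or less. The mesenchymal list of 7 genes summed to 16260 to 19760 CPM in pMSCV, SRF and SRF-PDGFRB, 17370 to 28590 CPM in SRF-FOXO1, 19330 to 29100 CPM in SRF-RELA and 21570 to 41650 CPM in SRF-ICA1L, whose libraries lay above all of the first 3 groups. The ranges of all 3 sums overlapped between SRF-FOXO1 and SRF-ICA1L. The part of these marker genes in the results was not tested. The blood list of 6 genes summed to 4.17 CPM or less in every library, with CD3E at 0.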

How the data were processed

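Poly(A) RNA of 18 MSC-hTERT libraries was prepared with a stranded mRNA kit and sequenced on an Illumina NovaSeq instrument, per the labels' protocols. The deposited values are raw counts, 1 row per Ensembl identifier and 1 column per library, per the file headers. FastQC 0.11.8, Trimmomatic 0.39, HISAT2, featureCounts and Subread 2.0.3 are named with GRCh38 in the submitters' processing notes. Which annotation was counted, and with which strand setting, is not given in the sources used here, so reads of overlapping or similar genes could have been split. Symbols came from a gene name table for 61369 identifiers and from GENCODE 29 for 105, and 13 had none.

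CPM is a count divided by the library total. EdgeR 4.0.16 in R 4.3.3 was fitted once to the 18 libraries: filterByExpr with a minimum count of 10 (18544 genes kept), TMM scaling, a robust quasi-likelihood model with a coefficient for each group (12 residual degrees of freedom), two-sided F tests and Benjamini-Hochberg adjustment over all genes tested. SE is the log2 fold change divided by the square root of F. The SRF-FOXO1 and SRF-ICA1L libraries chose the genes, so their contrasts of the 5 genes are given without a test or interval, though they also enter the shared estimate of spread. Ratios of counts have exact 95% binomial intervals, and 3 counts were taken as the upper limit that a 0 allows, both for counting error only. The depth allows no ranking of groups at 0 to 3 counts. Likeness is Pearson's r of TMM-scaled log2 CPM (prior count 2).

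Deviations from group means correlated over 0.1 in 44 of 45 same-numbered pairs of libraries (median 0.375, against -0.18 in 90 other pairs), the exception being replicate 1 of SRF and SRF-FOXO1 at 0.0875. The labels do not say what a number marks. The values pair the libraries by number, but the main fit left this pairing out because its meaning is not labelled. A fit with a replicate block (10 residual degrees of freedom) is given where it changed a call. The block kept the EXTL1 and KLHDC8A calls in SRF-RELA against pMSCV (edgeR adjusted p = 5.58e-05 and 0.0081).

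The genes, lists and rules were chosen with earlier results of these data known. Named genes are the 5, the partner genes, 3 genes just outside the threshold, up to 4 called or 3 high genes per list, the 3 most like each gene, and its tested neighbours. Alternatives were DESeq2 1.42.0, other scalings and filters, only the 2 compared groups, the block and leaving out each library. The 3 fits to 12 libraries were chosen after seeing the data. The scripts were tested on simulated data.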

Additional observations from a re-analysis of the deposited data

Results flagged for a closer look

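The response of EXTL1 differed between 2 fusions under the same contrast with pMSCV. Its log2 change was 4.75 in SRF-RELA and 0.53 in SRF-PDGFRB, a difference of 4.22 (SE 0.57, edgeR adjusted p = 0.00322), with SRF-RELA higher in 3 of 3 same-numbered pairs. KLHDC8A differed likewise, with a log2 change of 4.17 in SRF-RELA and 0.04 in SRF-PDGFRB and a difference of 4.12 (SE 0.74, edgeR adjusted p = 0.0340). Both contrasts share the pMSCV libraries, so each difference equals SRF-RELA minus SRF-PDGFRB. Over the alternatives the edgeR or DESeq2 adjusted p reached 0.0534 for EXTL1 and 0.190 for KLHDC8A. KLHDC8A reached the low-count limit of the main fit in all 3 libraries only in SRF-ICA1L, a group that took part in choosing it. Each SRF-PDGFRB library held 1 count of it or none. In the fit to the 12 libraries without SRF-FOXO1 and SRF-ICA1L its edgeR adjusted p for this difference was 0.0856. The groups of 3 are too small for a check of single outlying libraries.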

How the results depend on the processing

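Against pMSCV, SRF and SRF-PDGFRB, 2 of the 5 genes were called in SRF-RELA. Leaving out 1 library gave 1 to 2 in each comparison, always with EXTL1. A minimum of 10 counts in every library left ICA1L as the only one of the 5 tested and gave 0. With only the 2 compared groups the counts were 1, 0 and 0. Fits to the 12 libraries without SRF-FOXO1 and SRF-ICA1L, chosen after seeing the data, gave 1, 2 and 1. In those fits 36, 72 and 28 of 18169 genes were called higher. With no filter and the replicate block these 12 libraries gave 4 in each (EXTL1, KLHDC8A, ACP3 and ROR2). Of 38903 genes, 395, 683 and 314 were then called higher. The replicate block alone gave 2, 3 and 3, where 172, 233 and 115 of 18544 genes were called higher. It changed no other call among the tested comparisons of the 5 genes. DESeq2 gave 3 in each, where it called 127, 171 and 102 of 18542 genes higher. No filter alone gave 3 against SRF and 3 against SRF-PDGFRB, where 63 and 32 of 40522 genes were called higher. DESeq2 size factors and total counts each gave 3 against SRF-PDGFRB, where 27 and 29 of 18544 genes were called higher.

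Calls among the 86 list genes moved more. In SRF-FOXO1 against SRF-ICA1L (0 called) DESeq2 gave 1, the 2 groups alone 1 and the replicate block 4. In SRF against pMSCV (0) DESeq2 gave 1. In SRF-FOXO1 against pMSCV (1) DESeq2 gave 6, the replicate block 9, and leaving out 1 library 0 (without pMSCV replicate 1) to 10 (without SRF-FOXO1 replicate 1). In SRF-ICA1L against pMSCV (1) a minimum of 10 counts in every library, no filter and the 2 groups alone gave 0, the replicate block 6, and leaving out 1 library 0 to 2. In SRF-RELA against pMSCV (0) no filter gave 1, and DESeq2, the 2 groups alone and the replicate block 2 each.

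Directions reversed only for differences that were not called. For KLHDC8A the log2 change of SRF against pMSCV was -0.0049 with the replicate block and -0.015 by total counts. For SRF-PDGFRB it was -0.0082 against pMSCV and -0.0033 against SRF with the replicate block, and -0.0092 and -0.044 in 12 libraries with no filter and the block. Leaving out 1 library moved it from -0.55 to 2.59, from -0.51 to 2.63 and from -0.50 to 0.42 in these 3 comparisons. Over the same fits ACP3 ran from -0.39 to 0.33 in SRF and from -0.025 to 0.69 in SRF-PDGFRB against pMSCV. ICA1L ran from -0.17 to 0.030 in SRF-PDGFRB against SRF, from -0.10 to 0.22 in SRF-RELA against SRF and from -0.22 to 0.11 in SRF-RELA against pMSCV. The cause was not tested. Without SRF replicate 1, ROR2 had no count in SRF or SRF-PDGFRB and gave no value. In all, 372 of 434 values of single genes kept direction and call, and counts of 0 to 3 limit KLHDC8A and ROR2 in the 4 low groups.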

Other observations

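Replicate 2 had the highest EXTL1 level in 4 of the 6 groups, KLHDC8A in 2, ACP3 and ROR2 in 1 each and ICA1L in none. In SRF-RELA replicate 2, EXTL1 was at 6.07 CPM against a mean of 3.38 CPM in the other 2 libraries of that group. The labels do not say what the number marks.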
